A study of Mus musculus with 11 samples.

Results

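The nuclear factor I (Nfi) family comprises 4 mouse genes, Nfia, Nfib, Nfic and Nfix, which were chosen by symbol and not by their measured values. All 4 were found among the 46078 gene identifiers counted in each of 11 RNA-seq libraries from embryonic mouse brain of the CD-1 strain, and all 4 passed the filter on low counts in every comparison. The study changed the level of L3mbtl3, which encodes an MBT-domain chromatin protein, in the dorsal telencephalon, the forebrain region that forms the neocortex. In the gain libraries (3), wild-type embryos were electroporated in utero at E12.5 with the plasmid pCIG2 carrying L3mbtl3, and cells with GFP fluorescence were collected by sorting at E15.5. In the GFP control libraries (3), the same plasmid without L3mbtl3 was used and cells were sorted in the same way. At E12.5, whole microdissected dorsal telencephalon gave 2 libraries labelled knockout (L3mbtl3 -/-), 2 labelled heterozygote (L3mbtl3 +/-) and 1 labelled wild-type. The heterozygote and wild-type libraries together form the E12.5 controls, so 2 of these 3 controls carry 1 mutant allele by label. An electroporated population is limited to the cells that took up plasmid, while the E12.5 tissue holds every cell type in the dissected piece.

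Nfi proteins are DNA-binding transcription factors that act as homodimers or heterodimers on a palindromic site, and a single arm of the palindrome binds them more weakly. In the developing mouse cortex, Nfia, Nfib and Nfix are expressed in radial glial progenitors and in young neurons, and mice lacking any of these genes keep progenitors for longer and form neurons and glia late. Nfia is also known from the chick and mouse spinal cord for starting gliogenesis, whereas Nfic is best known for its role in tooth root formation.

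Regions upstream of a transcription start are shown for Nfix and for 2 reported Nfi target genes, Cntn2 and Mmd2. The 3 genes were chosen for 2 differences described further on. They were lower in the libraries labelled knockout, and higher in the sorted E15.5 controls, than in the E12.5 controls. Cntn2 encodes the axonal adhesion molecule contactin 2, and its regulation by Nfi proteins is known from mouse cerebellar granule neurons. Mmd2 encodes a membrane protein reported downstream of Nfia in spinal cord gliogenesis. Each sequence is the 250 bases before a RefSeq transcription start in GRCm38.p6, written 5' to 3' on the gene's own strand, which is the minus strand for all 3 genes. Capitals mark each copy of the Nfi arm motif TTGGC on either strand, so that a copy on the other strand reads GCCAA. The windows are chr8:84775829-84776078 for Nfix, chr1:132542941-132543190 for Cntn2 and chr5:142608753-142609002 for Mmd2.
Nfix: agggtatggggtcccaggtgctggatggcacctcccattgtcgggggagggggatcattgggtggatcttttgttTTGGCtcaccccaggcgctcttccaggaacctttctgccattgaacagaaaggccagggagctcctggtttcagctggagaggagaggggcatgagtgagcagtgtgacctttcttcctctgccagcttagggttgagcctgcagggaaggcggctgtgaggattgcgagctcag
Cntn2: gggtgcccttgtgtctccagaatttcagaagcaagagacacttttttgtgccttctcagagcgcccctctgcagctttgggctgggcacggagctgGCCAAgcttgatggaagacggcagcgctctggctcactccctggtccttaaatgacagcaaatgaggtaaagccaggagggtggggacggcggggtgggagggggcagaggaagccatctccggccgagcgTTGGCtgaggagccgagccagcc
Mmd2: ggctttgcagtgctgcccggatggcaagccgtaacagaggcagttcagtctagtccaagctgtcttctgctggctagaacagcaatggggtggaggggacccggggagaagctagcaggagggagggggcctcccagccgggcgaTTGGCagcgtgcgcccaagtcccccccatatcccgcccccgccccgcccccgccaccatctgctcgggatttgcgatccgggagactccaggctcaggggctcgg
The Nfix window is 1 of 4, printed because it holds a motif, and 2 of the 4 hold none. All 4 lie within the counted span of Nfix (chr8:84699876-84800344), before starts inside the gene and not upstream of its 5' end. The Nfix and Mmd2 windows each hold 1 arm motif and the Cntn2 window holds 2, one in each orientation. An arm motif is common, since 13637 of 32851 such windows in the mouse genome (41.5%) hold at least 1. The full palindrome TTGGCNNNNNGCCAA, which contains 2 arm motifs and reads the same on both strands, occurs in 12 of these windows (0.0365%). It occurs in none of the windows of the Nfi genes or of the reported targets that were searched. Of the 6 windows of Nfia, Nfic and Nfix, 2 hold an arm motif, both of them Nfix windows. The Nfia window (chr4:97581693-97581942) lies outside the counted span of Nfia, which begins at 97772734. Of the windows of 10 of the 14 listed target genes, 7 hold an arm motif. Windows of the rest of the list, Apcdd1 and Hes1 among it, were not part of this search. A match is only a description of the letters upstream of a start site.

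Library totals ran between 16527551 and 26658718 counts. By Xist and Y-linked counts, 2 gain libraries and 1 library labelled knockout came from female embryos and the other 8 libraries from male embryos. The dorsal forebrain marker Emx2 was present throughout. It had 26.5 to 31.2 CPM (counts scaled to library size, on one scale for the 11 libraries) in the gain libraries and 20.2 to 34 CPM in the GFP controls. At E12.5 it had 138 to 162 CPM in the libraries labelled knockout and 121 to 125 CPM in the controls (log2 fold change 0.29, SE 0.0591, edgeR adjusted p = 0.0162). Ventral markers were present as well and are given further on. L3mbtl3 itself had 898 to 1518 CPM in the gain libraries, against 50.3 to 60 CPM in the GFP controls. It had 67.2 and 70.5 CPM in the libraries labelled knockout, against 55.8 to 58.3 CPM in the E12.5 controls, a log2 fold change of 0.27 (SE 0.0539, edgeR adjusted p = 0.0128). L3mbtl3 transcripts were thus higher and not lower under the knockout label, and counts summed over all exons do not show whether part of the gene was deleted. The labels do not say that the libraries of a group came from separate embryos, so each p-value reflects only how much these samples vary among themselves.

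The levels of the 4 genes were compared with each other per kilobase of counted exon. The counted lengths are 10891 bases for Nfia (ENSMUSG00000028565, chr4:97772734-98118874, plus strand), 14957 bases for Nfib (ENSMUSG00000008575, chr4:82290173-82705750, minus strand), 6534 bases for Nfic (ENSMUSG00000055053, chr10:81396186-81431005, minus strand) and 7351 bases for Nfix (ENSMUSG00000001911, chr8:84699876-84800344, minus strand), all in GRCm38. Nfib had the highest level of the family in 10 of the 11 libraries. The exception was GFP control 3, in which the ratio of Nfib to Nfix was 0.875 on the scale of CPM per kilobase. Nfib levels were 112 to 137 CPM per kb in the gain libraries, 94.3 to 122 in the GFP controls, 48.2 to 49 in the libraries labelled knockout and 56.7 to 63.3 in the E12.5 controls. Nfix followed, with 80.4 to 115 CPM per kb in the gain libraries, 57.2 to 139 in the GFP controls, 24.2 to 25.2 in the libraries labelled knockout and 28.2 to 33.7 in the E12.5 controls. Among the sorted libraries the Nfib and Nfix ranges overlapped, while at E12.5 they did not.

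Nfia stood below Nfix, at 19.6 to 25.1 CPM per kb in the gain libraries, 17 to 21 in the GFP controls, 20.8 to 21.9 in the libraries labelled knockout and 23.6 to 28.3 in the E12.5 controls. At E12.5 the gap between Nfix and Nfia was small, with Nfix at 1.15 to 1.16 times the Nfia level in the libraries labelled knockout and 1.16 to 1.3 times in the controls. In the sorted cells this ratio was 3.95 to 5.05 in the gain libraries and 3.03 to 6.63 in the GFP controls. Nfic had the lowest level in all 11 libraries, between 3.9 and 6.5 CPM per kb. Even so, Nfic was well above the counting floor, with 468 to 1017 reads per library.

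**Figure D1:**
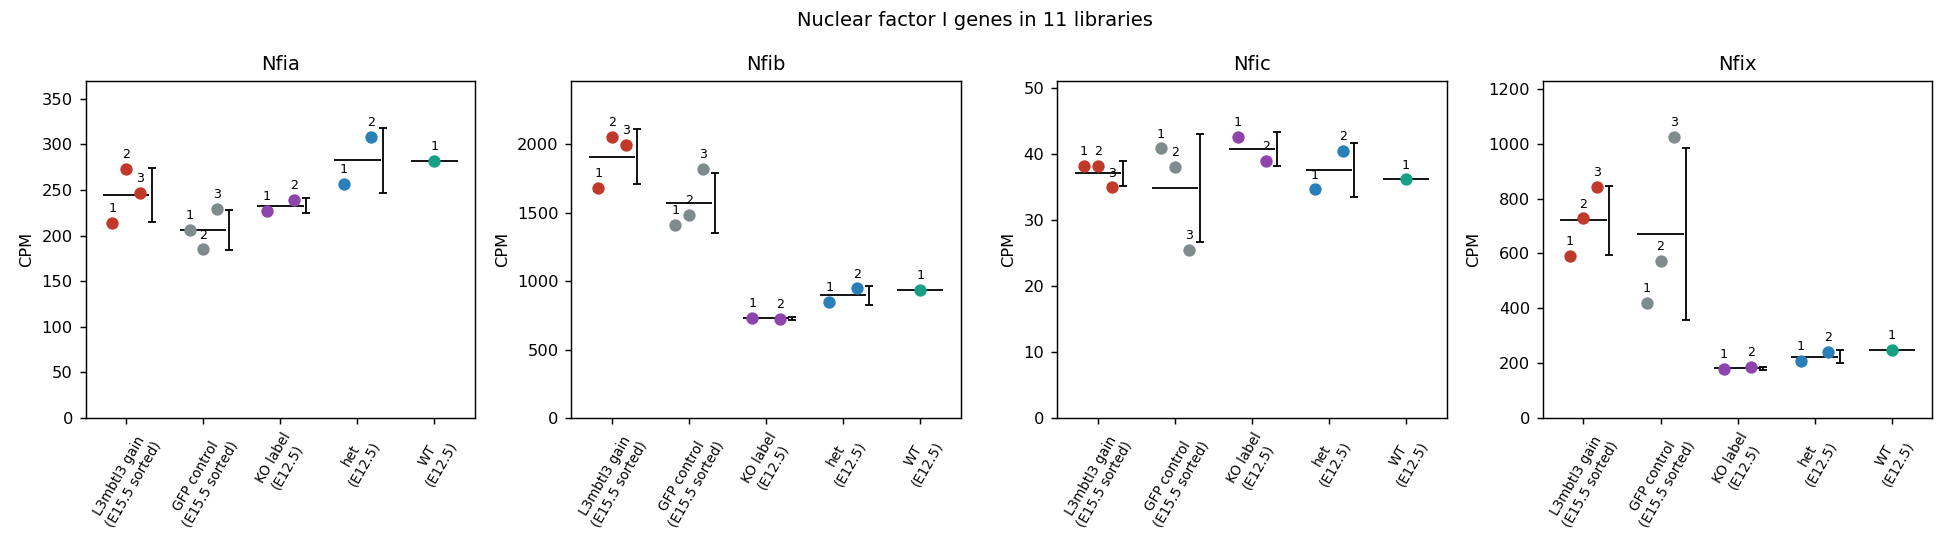
CPM of Nfia, Nfib, Nfic and Nfix (1 panel each, linear axes from 0) in the 11 libraries, with replicate numbers above the points. Horizontal lines are group means and bars are ± 1 SD (none for the single wild-type library). Nfib and Nfix are higher in all 6 sorted E15.5 libraries than in all 5 E12.5 libraries, and GFP control 3 has the highest Nfix level (1024 CPM) and the lowest Nfic level (25.5 CPM).

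The makeup of the family differed between the sorted cells and the E12.5 tissue in the shares of Nfia and Nfix, whose ranges did not overlap. Summed over the 4 genes, the level was 218 to 276 CPM per kb in the gain libraries and 177 to 286 in the GFP controls. At E12.5 the sum was 100 to 101 CPM per kb in the libraries labelled knockout, against 114 to 131 in the controls, so the E12.5 groups did not overlap. Nfia made up 8.22 to 9.39% of the sum in the gain libraries, 7.35 to 10.7% in the GFP controls, 20.7 to 21.6% in the libraries labelled knockout and 20.3 to 21.7% in the E12.5 controls. The Nfix share ran the other way and varied widely among the GFP controls, at 36.8 to 41.5% in the gain libraries, 32.4 to 48.7% in the GFP controls, 24 to 24.9% in the libraries labelled knockout and 24.8 to 26.4% in the E12.5 controls. The Nfib share was 42.6 to 53.4% in the sorted libraries and 47.6 to 49.8% in the E12.5 libraries, so these ranges overlapped. These shares are ratios within a library and do not depend on how libraries are scaled.

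**Figure D2:**
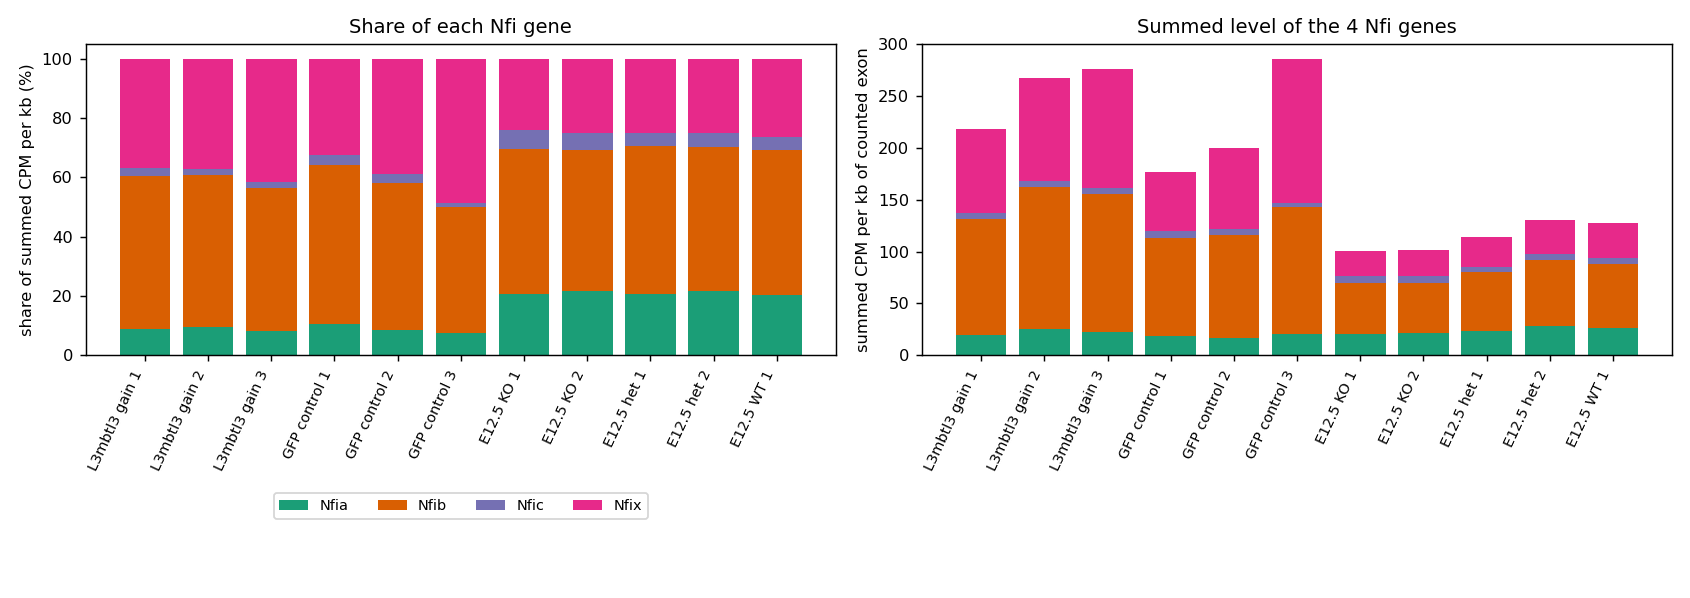
Left, share of each Nfi gene in the summed CPM per kb of the 4 genes, in percent, for each library. Right, the sum itself in CPM per kb of counted exon. The Nfia share is 7.35 to 10.7% in the 6 sorted libraries and 20.3 to 21.7% in the 5 E12.5 libraries.

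Within the family, the profile of Nfia was nearest in distance to that of Nfic, and the profile of Nfib to that of Nfix. The levels of Nfia and Nfic varied little across the libraries, and those of Nfib and Nfix varied more. The root mean square difference between centred log2 CPM profiles over the 11 libraries was 0.28 for Nfia and Nfic and 0.37 for Nfib and Nfix. It was 0.64 for Nfia and Nfib and 0.98 for Nfia and Nfix. Among 11720 coding genes, the profiles nearest to Nfib were those of Sgtb (0.085), of Map2, which encodes a dendritic microtubule protein (0.091), and of Tbc1d25 (0.098). Nfix was nearest to Cabp1, a neuronal calcium-binding protein gene (0.12), to Herc3 (0.13) and to Dab1, the intracellular adaptor of Reelin signalling (0.14). Nfia was nearest to Slc25a30 (0.092), Cebpz (0.1) and Kpna3, an importin gene (0.12), and Nfic to Resf1 (0.047), Rab3gap1 (0.074) and Zc3h7a (0.086). The median difference over all genes was 0.43 for Nfia, 0.58 for Nfib, 0.42 for Nfic and 0.88 for Nfix. The 11 libraries fall into sorted E15.5 cells and E12.5 tissue, and the distances describe this set of libraries only. Profiles that vary little lie near each other by this distance, whether or not they rise and fall together. Under the knockout label, the log2 fold changes of Nfia (-0.28) and Nfic (0.14) had opposite signs, with neither gene called.

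Raising L3mbtl3 in the electroporated cells was followed by no called change in any Nfi gene. None of the 4 reached an adjusted p of 0.05, where 0.0136% of all 14698 genes tested did (2 genes, L3mbtl3 included), and none had groups without overlap, where 16.7% of all genes did. None had an unadjusted p under 0.05 in the main edgeR fit, and DESeq2 called none. Without GFP control 3 the unadjusted edgeR p was 0.0218 for Nfia, 0.00714 for Nfib, 0.466 for Nfic and 0.0166 for Nfix, with none called. Without GFP control 2 it was 0.252 for Nfia, 0.198 for Nfib, 0.504 for Nfic and 0.998 for Nfix. Limma's voom with quality weights, which called 2120 genes in all, called Nfia (log2 fold change 0.39, adjusted p = 0.0249) and Nfib (0.37, adjusted p = 0.0209) higher. Its control side rested mostly on GFP control 2, with a weight of 3.87 against 0.294 and 0.229 for GFP controls 1 and 3. Nfib had 1681, 2051 and 1996 CPM in the gain libraries, against 1411, 1485 and 1822 CPM in the GFP controls. Only GFP control 3 reached into the range of the gain libraries. For Nfib the fit gave a log2 fold change of 0.29 (SE 0.135, 95% interval -0.03 to 0.60, edgeR adjusted p = 0.585). Nfia behaved much the same, with 214, 273 and 247 CPM in the gain libraries against 206, 185 and 229 CPM in the GFP controls. Its groups overlapped through gain library 1 and GFP control 3. The fitted log2 fold change of Nfia was 0.25 (SE 0.124, 95% interval -0.04 to 0.54, edgeR adjusted p = 0.595). In bulk libraries such as these, fewer cells of a type and less RNA per cell cannot be told apart.

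Nfix had the widest spread of the family. Its levels were 591, 728 and 842 CPM in the gain libraries, against 421, 573 and 1024 CPM in the GFP controls, so the control group alone spanned 2.43-fold and enclosed the gain libraries. For Nfix the log2 fold change was 0.11 (SE 0.311, 95% interval -0.62 to 0.84, edgeR adjusted p = 0.908). It became 0.55 without GFP control 3 (adjusted p = 0.33) and -0.13 without GFP control 1 (adjusted p = 0.798). Nfic had 38.1, 38.1 and 34.9 CPM in the gain libraries against 40.8, 38 and 25.5 CPM in the GFP controls. Its log2 fold change was 0.10 (SE 0.181, 95% interval -0.33 to 0.52, edgeR adjusted p = 0.856), or -0.08 without GFP control 3. A p that misses the threshold does not show equal levels, and the intervals of Nfia and Nfib run up to log2 differences of 0.54 and 0.60.

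The GFP controls differed among themselves in their cell markers as well as in Nfix. In GFP controls 1, 2 and 3, the summed level of 14 ventral telencephalon and GABAergic genes was 1130, 403 and 43.7 CPM, the sum of 12 apical progenitor genes was 1915, 1442 and 918 CPM, and the sum of 12 pan-neuronal genes was 6566, 7237 and 8978 CPM. Nfix thus was highest where the pan-neuronal sum was highest and the ventral and progenitor sums lowest. In the gain libraries the ventral sum was 332, 307 and 49.6 CPM, and again the library with the least, gain library 3, had the most Nfix. The other sums did not follow Nfix in the same way there. In gain libraries 1, 2 and 3, the apical progenitor sum was 1350, 1407 and 1458 CPM, highest where Nfix was highest, and the pan-neuronal sum was 7577, 7790 and 7735 CPM. The part of these markers in the Nfix values was not tested.

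**Figure D3:**
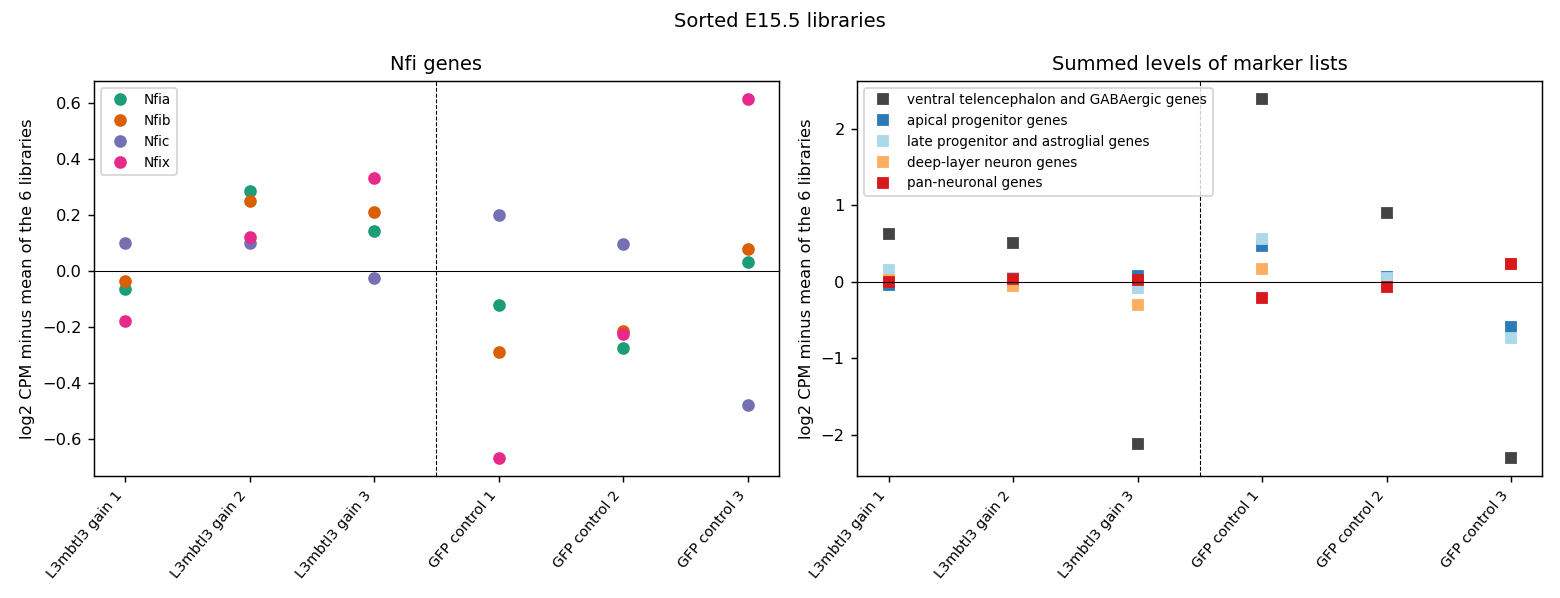
Levels in the 6 sorted E15.5 libraries as log2 CPM minus the mean of the 6 libraries, for the 4 Nfi genes (left) and for the summed CPM of 5 marker lists (right, with a wider axis). The gain libraries stand left of the dashed line and the GFP controls right of it. GFP control 3 is highest for Nfix and the pan-neuronal sum and lowest for Nfic, the ventral sum and the apical progenitor sum.

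In E12.5 tissue, Nfib and Nfix fell in the libraries labelled knockout, to 0.8 and 0.785 times the control level. With 2 of 4 members called, both lower, the background was 7.41% of the 16361 genes tested called in either direction and 3.78% called lower. Nfib had 733 and 721 CPM in the libraries labelled knockout, against 848, 947 and 934 CPM in the controls. The groups did not overlap, and the libraries labelled knockout differed by less than the controls did. The log2 fold change of Nfib was -0.32 (SE 0.0503, 95% interval -0.43 to -0.21, edgeR adjusted p = 0.00326). The call held in 11 of 12 alternative settings, the exception being a single fit to all 11 libraries. Nfix had 178 and 186 CPM in the libraries labelled knockout, against 207, 240 and 247 CPM in the controls, again without overlap. The log2 fold change of Nfix was -0.35 (SE 0.0766, 95% interval -0.53 to -0.17, edgeR adjusted p = 0.0402). This call is close to the threshold and was lost in 8 of 12 alternative settings, although the sign of the change was kept in all 12. Leaving out knockout library 1 gave an adjusted p of 0.262, knockout library 2 gave 0.302, heterozygote library 2 gave 0.108 and the wild-type library gave 0.0603.

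Nfia lay in the same direction as Nfib and Nfix but was not called. It had 227 and 239 CPM in the libraries labelled knockout, against 257, 308 and 282 CPM in the controls. Its groups did not overlap either, so that 3 of the 4 genes had lower values in both libraries labelled knockout than in every control, where 19.5% of all genes did and 38.6% had groups without overlap in either direction. The log2 fold change of Nfia was -0.28 (SE 0.0716, 95% interval -0.44 to -0.11, edgeR adjusted p = 0.0593). Nfia was called lower in 4 of 12 alternative settings, among them the fit without heterozygote library 1 (log2 fold change -0.34, adjusted p = 0.00499). Nfic showed no such difference, with 42.5 and 38.9 CPM in the libraries labelled knockout and 34.6, 40.4 and 36.1 CPM in the controls. Its log2 fold change was 0.14 (SE 0.0737, 95% interval -0.02 to 0.30, edgeR adjusted p = 0.299), and its groups overlapped.

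The proportions of Nfia, Nfib and Nfix to each other were close in both E12.5 groups. The ratio of Nfib to Nfia, per kilobase, was 2.2 to 2.36 in the libraries labelled knockout and 2.24 to 2.41 in the controls. The ratio of Nfib to Nfix was 1.91 to 2.03 in the libraries labelled knockout and 1.86 to 2.01 in the controls. The share of Nfic in the family sum was 5.87 to 6.47% in the libraries labelled knockout, against 4.33 to 4.74% in the controls, without overlap.

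Other cell markers moved in the same libraries. The sum of 10 choroid plexus genes was 269 to 274 CPM in the libraries labelled knockout, against 567 to 645 CPM in the controls, and 8 of the 10 genes fell, where 3.78% of all genes did. The ventral sum was 194 to 223 CPM in the libraries labelled knockout, against 136 to 171 CPM in the controls. The pan-neuronal sum was 1986 to 2195 CPM in the libraries labelled knockout, against 2247 to 2483 CPM in the controls. Of 10 intermediate progenitor genes 6 fell, among them Eomes (log2 fold change -0.38, SE 0.036, edgeR adjusted p = 0.000146), and of 12 pan-neuronal genes 4 fell, against the same 3.78%. The part of cell makeup in the lower Nfib and Nfix levels was not tested. One of the 2 libraries labelled knockout was female and all E12.5 controls were male. Sex and label cannot be told apart in that library, so a term for embryo sex leaves only the male library labelled knockout to compare with the controls. In that fit the log2 fold change was -0.31 for Nfib (edgeR adjusted p = 0.0364) and -0.38 for Nfix (adjusted p = 0.312).

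Genes reported as targets of Nfi proteins were examined beside the family. Of 14 on the list, 11 passed the count filter at E12.5. In the libraries labelled knockout 4 fell, where 3.78% of all genes fell, and none rose, where 3.63% rose. The median log2 fold change of the 11 was -0.05, against 0.00 for all genes tested. The list was not split by whether Nfi proteins are reported to raise or lower a gene. Neither the count nor the median thus has a set direction. Mmd2 had 28.7 and 26.4 CPM in the libraries labelled knockout, against 46.3, 52.5 and 48.9 CPM in the controls (log2 fold change -0.84, SE 0.0702, edgeR adjusted p = 5.38e-05). Cntn2 had 149 and 145 CPM in the libraries labelled knockout, against 177, 219 and 209 CPM in the controls (log2 fold change -0.45, SE 0.0921, edgeR adjusted p = 0.0432). Neither gene's groups overlapped, where 19.5% of all genes were lower without overlap and 38.6% had groups without overlap in either direction. Both windows printed above hold arm motifs, and other targets gave other combinations. Slc1a3 fell with no arm motif in its window, while Ezh2, with 2 arm motifs, was not called (log2 fold change 0.03, SE 0.0443, edgeR adjusted p = 0.782). Slc1a3, the glutamate transporter of radial glia and astrocytes, had a smaller fold change (log2 fold change -0.33, SE 0.047, edgeR adjusted p = 0.00189). Hes1, a Notch effector that Nfia is reported to repress in the mouse telencephalon, was not called (log2 fold change 0.21, SE 0.1, edgeR adjusted p = 0.261). In the gain comparison, none of the 11 targets tested was called. There Apcdd1 had 10.4, 6.21 and 7.94 CPM in the gain libraries, against 27.3, 17.3 and 21.6 CPM in the GFP controls (log2 fold change -1.42, SE 0.258, edgeR adjusted p = 0.457).

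Genes that mark early progenitors differed in the opposite direction to Nfib and Nfix. Of 11 early timing genes, 8 rose in the libraries labelled knockout and none fell, where 3.63% of all genes rose, and the median log2 fold change was 0.67. Trim71, an RNA-binding protein gene of early embryonic timing, had 6.07 and 6.8 CPM in the libraries labelled knockout, against 2.82, 1.59 and 2.06 CPM in the controls (log2 fold change 1.54, SE 0.202, edgeR adjusted p = 0.00124). Lin28b, which blocks maturation of let-7 microRNAs, had 27.1 and 24.4 CPM in the libraries labelled knockout, against 15.4, 13.2 and 13.8 CPM in the controls (log2 fold change 0.86, SE 0.0879, edgeR adjusted p = 0.000223). Both genes separated the groups fully, where 38.6% of all genes had groups without overlap in either direction. Lin28a, a paralog of Lin28b, rose as well (log2 fold change 1.64, SE 0.332, edgeR adjusted p = 0.0126), with 34 reads in each library labelled knockout and 6 to 19 in the controls. Of 14 late progenitor and astroglial genes, 6 fell, where 3.78% of all genes fell, and 1 rose. Slc1a3 and Fabp7 are among these 6 and also among the 4 reported targets that fell. The 2 counts are thus not separate. Aldoc, a glycolytic enzyme gene of radial glia and astrocytes, fell the most (log2 fold change -0.99, SE 0.0931, edgeR adjusted p = 0.00224). Fits on fewer libraries or with another tool called 6 to 9 early timing genes higher, but the single fit to all 11 libraries called none.

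**Figure D4:**
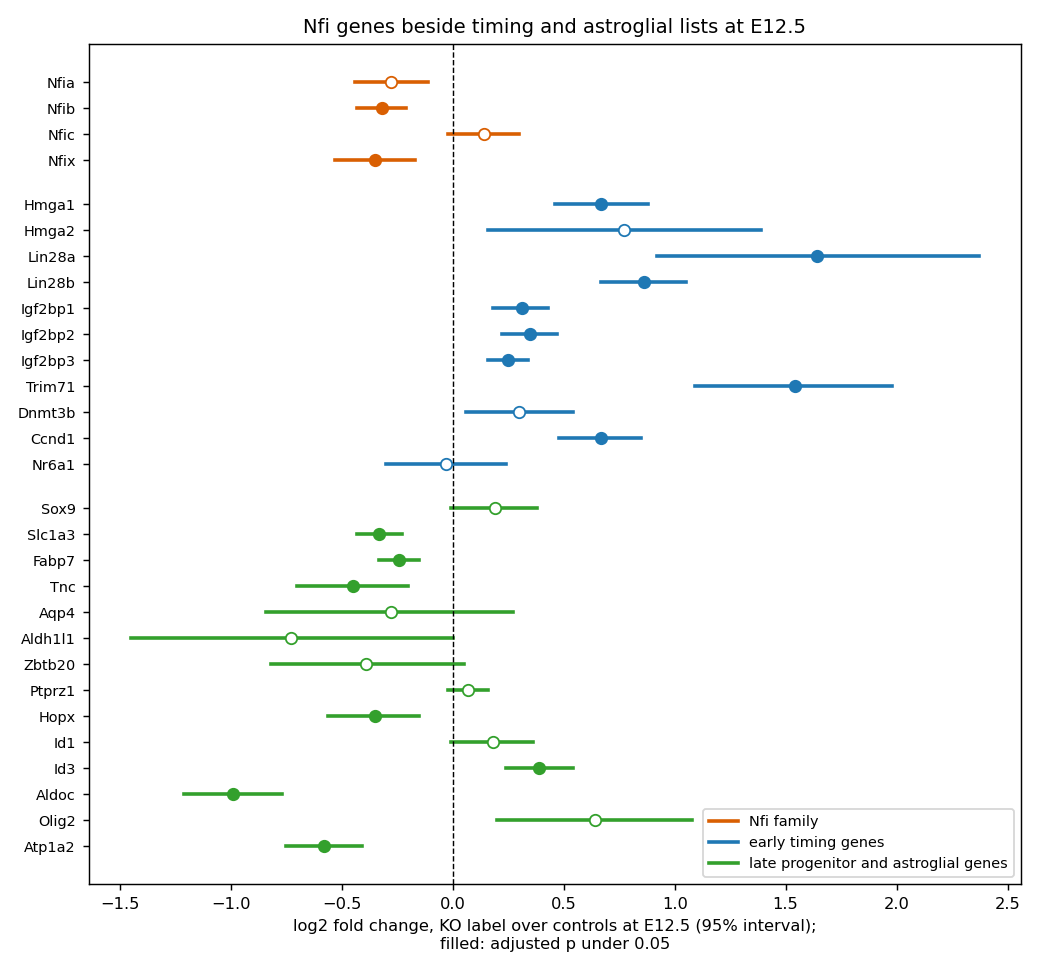
Log2 fold changes with 95% intervals in E12.5 tissue, libraries labelled knockout over controls, for the 4 Nfi genes, 11 early timing genes and 14 late progenitor and astroglial genes. Filled points have an edgeR adjusted p under 0.05. Nfib, Nfix and 6 of the 14 late genes are called lower, and 8 of the 11 early timing genes and 1 late gene are called higher. Of all genes tested, 3.78% are called lower and 3.63% higher.

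The sorted GFP controls at E15.5 were then set against the E12.5 controls, which gives the only view of the family over time in these data. Age, sorting, electroporation and the heterozygous genotype of 2 of the E12.5 controls differ together in this comparison and cannot be told apart. The GFP controls and the E12.5 controls are also the controls of the other comparisons. Nfib and Nfix rose and Nfia fell, so that 3 of 4 members were called where 62.3% of 15968 genes tested were called. At that background, a call by itself says little about the family. The groups of these 3 genes did not overlap, where 72.5% of all genes had groups without overlap.

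Nfix differed most. It had 421, 573 and 1024 CPM in the GFP controls at E15.5, against 207, 240 and 247 CPM in the E12.5 controls. Nfix had a log2 fold change of 1.54 (SE 0.317, 95% interval 0.79 to 2.30, edgeR adjusted p = 0.0053), and it was 1.11 without GFP control 3 (adjusted p = 0.000536). Nfib had 1411, 1485 and 1822 CPM in the GFP controls, against 848, 947 and 934 CPM in the E12.5 controls. Its log2 fold change was 0.79 (SE 0.119, 95% interval 0.51 to 1.08, edgeR adjusted p = 0.0014), or 0.68 without GFP control 3. Nfia went the other way, with 206, 185 and 229 CPM in the GFP controls against 257, 308 and 282 CPM in the E12.5 controls. Its log2 fold change was -0.44 (SE 0.11, 95% interval -0.71 to -0.18, edgeR adjusted p = 0.0117). Nfic overlapped between the groups, with 40.8, 38 and 25.5 CPM in the GFP controls against 34.6, 40.4 and 36.1 CPM in the E12.5 controls (log2 fold change -0.09, SE 0.182, edgeR adjusted p = 0.697). Its sign changed to 0.10 without GFP control 3. The calls of Nfia, Nfib and Nfix held in all 12 alternative settings. Scaling by library totals alone moved the median of all genes to -0.30 from -0.02 and gave log2 fold changes of -0.72 for Nfia, 0.52 for Nfib and 1.25 for Nfix.

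**Figure D5:**
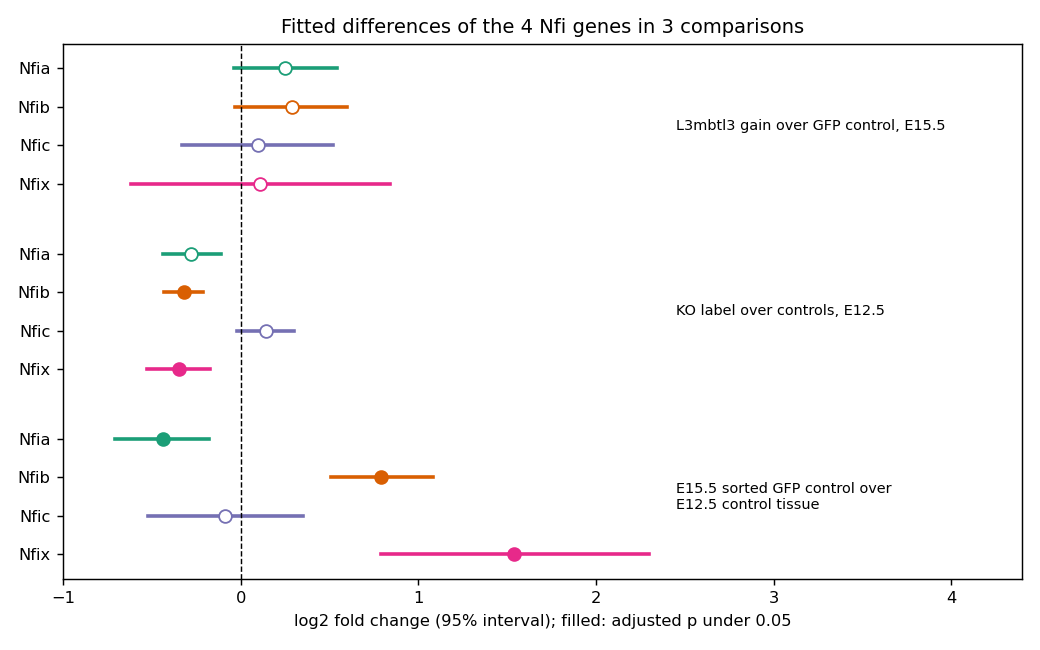
Log2 fold changes (points) with 95% intervals (lines) of the 4 Nfi genes in the 3 comparisons. Filled points have an edgeR adjusted p under 0.05. No gene is called for gain over GFP control, Nfib and Nfix are called lower under the knockout label, and in the E15.5 over E12.5 comparison Nfib and Nfix are called higher and Nfia lower.

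Cell makeup differed widely in the same comparison. The pan-neuronal sum was 6566 to 8978 CPM in the GFP controls, against 2247 to 2483 CPM in the E12.5 controls, and the apical progenitor sum was 918 to 1915 CPM in the GFP controls, against 3420 to 3522 CPM in the E12.5 controls. The endothelial sum was 14.3 to 21.2 CPM in the GFP controls, against 456 to 546 CPM in the E12.5 controls, and the meningeal sum was 13.6 to 71 CPM in the GFP controls, against 1657 to 1848 CPM in the E12.5 controls. The part of these cells in the Nfi levels was not tested. Of the 11 reported Nfi targets tested, 2 rose and 4 fell, a share of called genes below the 62.3% of all genes. The list was again not split by the reported direction of regulation. Cntn2 had 1841, 2123 and 2889 CPM in the GFP controls, against 177, 219 and 209 CPM in the E12.5 controls (log2 fold change 3.51, SE 0.199, edgeR adjusted p = 4.09e-05). Mmd2 had 61.5, 80.7 and 100 CPM in the GFP controls, against 46.3, 52.5 and 48.9 CPM in the E12.5 controls (log2 fold change 0.72, SE 0.178, edgeR adjusted p = 0.0115). Apcdd1, also on the target list, went the other way. It had 27.3, 17.3 and 21.6 CPM in the GFP controls, against 136, 119 and 125 CPM in the E12.5 controls (log2 fold change -2.51, SE 0.173, edgeR adjusted p = 7.33e-05). Hes1 was likewise among the 4 that fell (log2 fold change -2.45, SE 0.544, edgeR adjusted p = 0.00738). Without GFP control 3, 4 targets rose and 5 fell. Gfap, the astrocyte filament gene on the target list, stayed at 3 to 9 reads in the GFP controls and 1 to 4 reads in the E12.5 controls. Of 10 early timing genes tested, 8 fell, where 31.3% of all genes fell.

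Gene overlaps bear on how the Nfi counts can be read. Counting used the strand, and the genes that overlap Nfia, Nfib, Nfic or Nfix with more than 6 reads in a library lie on the opposite strand. The 5' end of E130114P18Rik overlaps that of Nfia, and E130114P18Rik averaged 16.3 CPM in the gain libraries, 17.9 in the GFP controls, 52.1 in the libraries labelled knockout and 61 in the E12.5 controls. Gm11266, an antisense transcript within Nfib, averaged 8.73 CPM in the gain libraries, 5.2 in the GFP controls, 19.5 in the libraries labelled knockout and 28.8 in the E12.5 controls. Gm11266 is low beside Nfib. E130114P18Rik is less so beside Nfia, which averaged 282 CPM in the E12.5 controls and 233 CPM in the libraries labelled knockout. Both overlapping genes were picked after their values were seen. Gm11266 averaged more in E12.5 tissue than in sorted cells, the opposite order to Nfib. Within each stage its order was that of Nfib, lower under the knockout label than in the E12.5 controls and higher in the gain libraries than in the GFP controls.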

How the data were processed

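Polyadenylated RNA was sequenced from stranded libraries read from one end over 75 bases, as the labels' protocols state. The deposited values are raw counts per gene, made by the authors with featureCounts 2.0.1 over exons with the reversely stranded setting (-s 2), per the file headers. The submitters' processing notes also name HISAT2 2.2.1, SAMtools 1.9, CASAVA 1.9, FastQC 0.11.8, deepTools 3.3.0 and GRCm38. The annotation release is not given in the sources used here. CD15+ samples at E14.5 were not analysed here.

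Symbols were mapped to gene identifiers. Counts were tested with edgeR 4.0.16 in R 4.3.3 (filterByExpr, TMM factors, robust quasi-likelihood test, two-sided), each comparison on its own libraries, with Benjamini-Hochberg adjustment over all genes tested. The threshold for a call, and for the words rose and fell, was an adjusted p of 0.05. SE is the absolute log2 fold change over the square root of the F statistic. Printed CPM carry TMM factors computed over all 11 libraries. The tests were checked on simulated counts that gave every gene the same spread. That check does not cover spread that differs among genes or cell makeup that differs among libraries. Alternatives used DESeq2 1.42.0, limma 3.58.1 (voom with quality weights), other scaling and filters, a sex term, a replicate block, a single fit to all 11 libraries and leaving out each library. A floor of 3 counts corresponds to 0.113 to 0.182 CPM and covers counting error only. Libraries of a group differed beyond sampling noise (chi-square per degree of freedom 3.57 to 86.3).

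Profile likeness used log2 CPM with a prior count of 2 over coding genes with a mean log2 CPM of at least 1. Named genes were the 4 Nfi genes, L3mbtl3, up to 3 called members with the largest change per list, and the 3 most alike profiles per Nfi gene. Emx2, Gfap, Ezh2, Fabp7, and Apcdd1, Hes1 and Mmd2 where the rule did not name them, were added after their values were seen. The members, lists and rule were chosen with earlier results of these data known. Upstream sequences are from RefSeq, which had entries for 3 of the 4 Nfi genes, and Nfib is only named.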

Additional observations from a re-analysis of the deposited data

How the results depend on the processing

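Directions and calls were recomputed under 12 or 13 alternatives per comparison. In the gain comparison, the count of called genes was 2, but 81 with DESeq2, 2120 with voom and quality weights, 1 with a sex term (which leaves gain library 2 alone against the controls) and 0 to 415 when each library was left out in turn (415 without GFP control 1, and 0 without GFP control 2, where 693 genes had an unadjusted p under 0.05). With voom, which weights down libraries that stand apart, Nfia (0.39, adjusted p = 0.0249) and Nfib (0.37, adjusted p = 0.0209) were called higher. The weights were 0.294, 3.87 and 0.229 for GFP controls 1, 2 and 3, and 1.49, 1.36 and 1.9 for the gain libraries. The voom calls thus set the gain libraries mostly against GFP control 2. Over all alternatives the adjusted p ranged from 0.0249 to 0.997 for Nfia and from 0.0209 to 0.997 for Nfib. Leaving out libraries gave log2 fold changes of 0.17 to 0.34 for Nfia, 0.23 to 0.41 for Nfib, -0.08 to 0.25 for Nfic and -0.13 to 0.55 for Nfix. Nfic reversed to -0.08 without GFP control 3, and Nfix reversed to -0.13 without GFP control 1, 0.00 without GFP control 2 and -0.03 without gain library 3.

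In the E12.5 comparison, 1213 called genes became 2266 with no filter on low counts, 654 with a sex term, 6 in a single fit to all 11 libraries and 603 to 1785 with a library left out (658 without knockout library 2, 673 without heterozygote library 2, 603 without the wild-type library). The single fit shares its estimate of spread with the sorted libraries, and its SE for Nfib was 0.131. There Nfib (-0.32) and Nfix (-0.35) both had an adjusted p of 1. Nfix also missed the threshold with a replicate block (-0.36, adjusted p = 0.0521), with voom (-0.35, adjusted p = 0.069) and with a sex term (-0.38). Where 1 library labelled knockout was left out, the other was assumed to vary like the controls. Leaving out libraries gave -0.42 to -0.30 for Nfix, -0.37 to -0.29 for Nfib, -0.34 to -0.21 for Nfia and 0.08 to 0.21 for Nfic. Nfia passed the threshold with DESeq2 (-0.27, adjusted p = 0.0019), with no filter (-0.27, adjusted p = 2.2e-07) and with a replicate block (-0.30, adjusted p = 0.0105). The cause of these differences was not tested.

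In the E15.5 over E12.5 comparison, 7793 to 12396 genes were called, against 9955. Nfic reversed to 0.10 without GFP control 3, 0.08 with a replicate block and 0.02 with voom. Leaving out libraries gave -0.52 to -0.36 for Nfia, 0.68 to 0.86 for Nfib, -0.22 to 0.10 for Nfic and 1.11 to 1.79 for Nfix. The labels do not say that replicate numbers pair the samples. Same-numbered gain and GFP control libraries had correlations of 0.18, 0.01 and 0.26 in their deviations from the group means. Differently numbered ones had -0.27 to 0.12. Same-numbered libraries of the other comparisons had -0.02 to 0.04. Gain libraries 1 and 3 correlated best with the GFP control of their own number, and gain library 2 with GFP control 1 (0.12). The block moved the counts to 3, 948 and 10529 in the gain, E12.5 and E15.5 over E12.5 comparisons. In the gain comparison it moved the SE of Nfix to 0.163 from 0.311, with a log2 fold change of 0.19. Counts of list members were recomputed under the same alternatives, chosen after seeing the data.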
